A study of Mus musculus with 6 samples.

Results

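Mitochondrial ribosomal proteins are the nuclear-encoded proteins of the ribosome that works inside mitochondria. The genes described here are the rows of the deposited table whose symbol is Mrpl or Mrps followed by a number and at most 1 letter. This rule gave 78 of 55536 listed genes, 49 of the large subunit (Mrpl) and 29 of the small subunit (Mrps), and all 78 passed the filter on low counts. The measurements are bulk RNA sequencing of mouse liver, in 3 Sirt5-/- livers, which lack the mitochondrial deacylase SIRT5, and 3 Sirt5+/+ livers. All 6 came from male C57BL/6 mice that were injected at 4 weeks of age with 50 µg of the PB[CMV-myc-YAP5SA]DS plasmid and 10 µg of the Act-PBase transposase plasmid, and the livers were taken 20 days later. YAP5SA is an active form of the co-activator YAP, here under a CMV promoter, and hydrodynamic injection (HDI) delivers plasmids mainly to hepatocytes, so both genotypes carry the oncogene and no liver without it was analysed here. The labels give neither the deleted part of Sirt5, nor the cells that lack it, nor whether each liver is a separate animal, so the p-values cover only the spread among these livers, which may be technical.

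The mitochondrial ribosome translates the few proteins that mitochondrial DNA encodes, all of them subunits of the respiratory chain and ATP synthase. Its rRNAs are made in the mitochondrion from mitochondrial DNA, while its proteins are translated in the cytosol and imported. The large subunit joins amino acids and releases the chain toward the inner membrane, and the small subunit binds the mRNA and reads its codons. Part of the proteins have a bacterial homologue and the others were gained in the mitochondrial lineage.

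Library totals ran from 19307790 to 24330781 rounded counts, and the members together took 13896 to 53161 of them per library. Sirt5 averaged 0.851 ± 0.373 CPM in Sirt5-/- and 15.01 ± 2.16 CPM in Sirt5+/+ livers (SD, n = 3 each; CPM are counts scaled to library size with TMM factors). The share of reads from mitochondrial DNA (genes named mt-) was 40.8, 21.5 and 17.5% in the Sirt5-/- livers, against 7.20, 6.58 and 46.4% in the Sirt5+/+ livers, in the order of their replicate numbers. Sirt5+/+ replicate 3 also had the smallest scaling factor (0.396, against 0.857 to 1.68 in the other libraries). The counts of members and the values of some genes are also given without it. Values given only once may change without it too. Of 17 hepatocyte markers measured, which show the labelled tissue, 14 (82.4%) were lower and none was higher in Sirt5-/-, against 17.1% of all genes tested lower. Their summed level was 23799 to 44623 CPM in Sirt5-/- and 104505 to 141490 CPM in Sirt5+/+ livers, with no marker at 0. In bulk liver, fewer hepatocytes and less RNA per hepatocyte cannot be told apart.

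Promoters of members are known to hold sites for the factors NRF1, GABP (an ETS factor) and YY1, so the RefSeq windows from 250 bases before to 50 bases after each start (GRCm38.p6) were searched. Below are the 100 bases before the start of 4 members, in pairs that hold the same motif and of which 1 passed the test between genotypes, with the motif in capitals. Mrpl12 and Mrps21 hold the NRF1-type motif, and Mrps27 and Mrpl51 the ETS-type motif, on one strand or the other.
Mrpl12 (chr11:120484537-120484636, plus strand): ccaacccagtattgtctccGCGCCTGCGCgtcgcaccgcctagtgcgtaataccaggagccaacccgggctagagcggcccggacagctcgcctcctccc
Mrps21 (chr3:95871515-95871614, minus strand): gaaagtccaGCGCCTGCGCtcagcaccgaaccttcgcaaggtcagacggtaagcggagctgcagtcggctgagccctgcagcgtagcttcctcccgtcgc
Mrps27 (chr13:99344686-99344785, plus strand): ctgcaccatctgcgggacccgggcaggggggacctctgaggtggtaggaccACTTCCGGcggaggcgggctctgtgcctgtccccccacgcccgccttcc
Mrpl51 (chr6:125192100-125192199, plus strand): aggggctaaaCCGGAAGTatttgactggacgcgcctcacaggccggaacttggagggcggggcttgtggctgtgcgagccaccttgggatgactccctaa
In each pair the first gene fell in Sirt5-/- livers (Mrpl12 by 2.04 and Mrps27 by 2.05 on the log2 scale), whereas the other did not pass the test (Mrps21 at -0.09 and Mrpl51 at -0.37).

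Messenger RNAs of the mitochondrial ribosome were more often lower than higher in Sirt5-/- livers, in both subunits. Of the 78 members, 27 fell, 1 rose and 50 did not pass the test (edgeR quasi-likelihood test, Benjamini-Hochberg adjusted p under 0.05). Among all 14799 genes tested, 17.1% were called lower and 17.4% higher, against 34.6% and 1.28% of the members. The median log2 change was -0.69 over the members, against -0.08 over all genes tested. The fitted change was below 0 in 71 of 78 members, against 52.9% of all genes. In 41 members every Sirt5-/- library lay below every Sirt5+/+ library, which held for 24.0% of all genes. In 1 member every Sirt5-/- library lay above every Sirt5+/+ library, which held for 25.8% of all genes. This direction depends on the scaling: with library totals 0 members were called lower, and with library totals over the genes other than mt- the medians turned to 0.09 for the large and 0.11 for the small subunit. Library totals moved the median of all genes to 0.60, and the second scaling moved it to 0.74. Relative to the median of all genes the members' median was -0.61 as reported, -0.67 with library totals and -0.64 without mt- genes. A change of scaling moves all genes by nearly the same amount, so this difference is no test of the scaling.

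**Figure D1:**
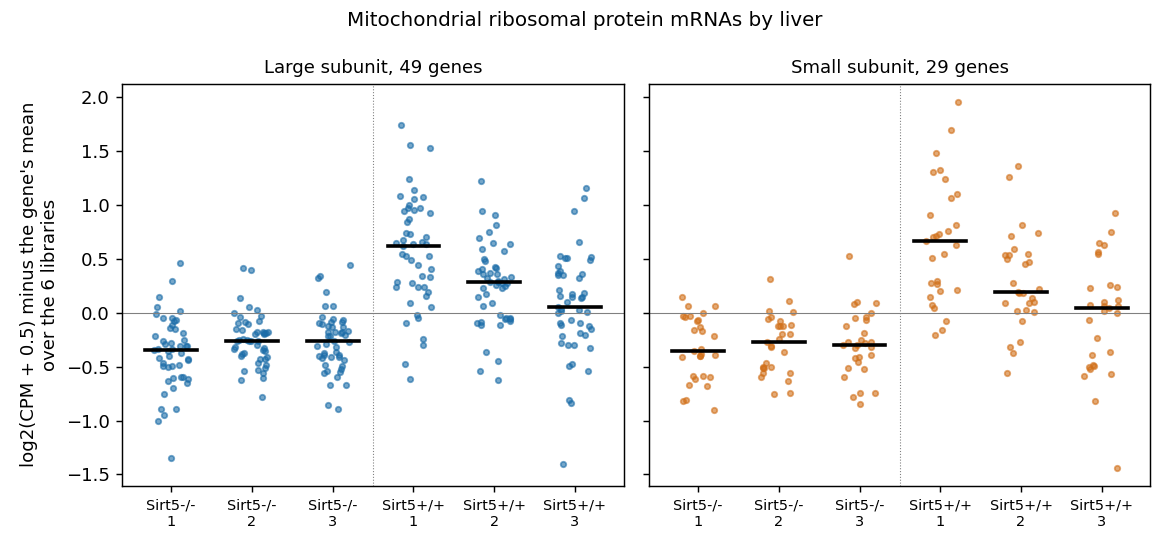
Level of each member in each liver, as log2(CPM + 0.5) minus the gene's mean over the 6 libraries, for the 49 large subunit genes and the 29 small subunit genes. Points are genes and black lines are medians, which sit between -0.36 and -0.26 in Sirt5-/- and between 0.04 and 0.66 in Sirt5+/+ livers, with Sirt5+/+ replicate 3 nearest to the Sirt5-/- livers.

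Summed over all members, the level was 1311, 1336 and 1307 CPM in the Sirt5-/- livers, against 2516, 1898 and 1821 CPM in the Sirt5+/+ livers. The Sirt5-/- livers thus lay close together and below each Sirt5+/+ liver, among which replicate 1 was the highest. Replicate 1 was the highest Sirt5+/+ library in 53 of 78 members and replicate 3 the lowest in 44. The median coefficient of variation between replicates was 9.56% in Sirt5-/- and 28.9% in Sirt5+/+ livers over the members. Over all genes tested it was 15.8% in Sirt5-/- and 35.7% in Sirt5+/+ livers. Leaving out Sirt5+/+ replicate 3 gave 42 lower and 2 higher members (23.4% of all genes lower), and leaving it out together with Sirt5-/- replicate 1, the library richest in mt- reads of the other genotype, gave 37 lower and 1 higher (22.8% of all genes lower). Without Sirt5-/- replicate 1, 2 or 3 the lower members numbered 6, 3 and 1, which is 7.69, 3.85 and 1.28% of the members, against 11.3, 7.54 and 7.21% of all genes, so that without any one of these libraries the members' share was below that of all genes. Without Sirt5+/+ replicate 1 or 2 they numbered 18 and 13, which is 23.1 and 16.7% of the members, against 13.2 and 11.4% of all genes. Of the 27 lower members, 1 kept its call in each of these cases and without the pair.

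The subunits had nearly the same values. In the large subunit 18 of 49 genes fell and 1 rose, with a median log2 change of -0.68 and a middle range (between the outer quartiles) of -0.92 to -0.40. In the small subunit 9 of 29 fell and none rose, with a median of -0.69 and a middle range of -1.10 to -0.29. The difference between the mean centred log2 levels of the large and the small subunit was -0.05, 0.05 and 0.03 in the Sirt5-/- livers, against -0.10, -0.03 and 0.10 in the Sirt5+/+ livers. These values overlap, and no test was made over the gene lists. At least 2-fold lower and called were 8 large subunit and 6 small subunit genes, and the share of all genes that met both limits was not counted.

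**Figure D2:**
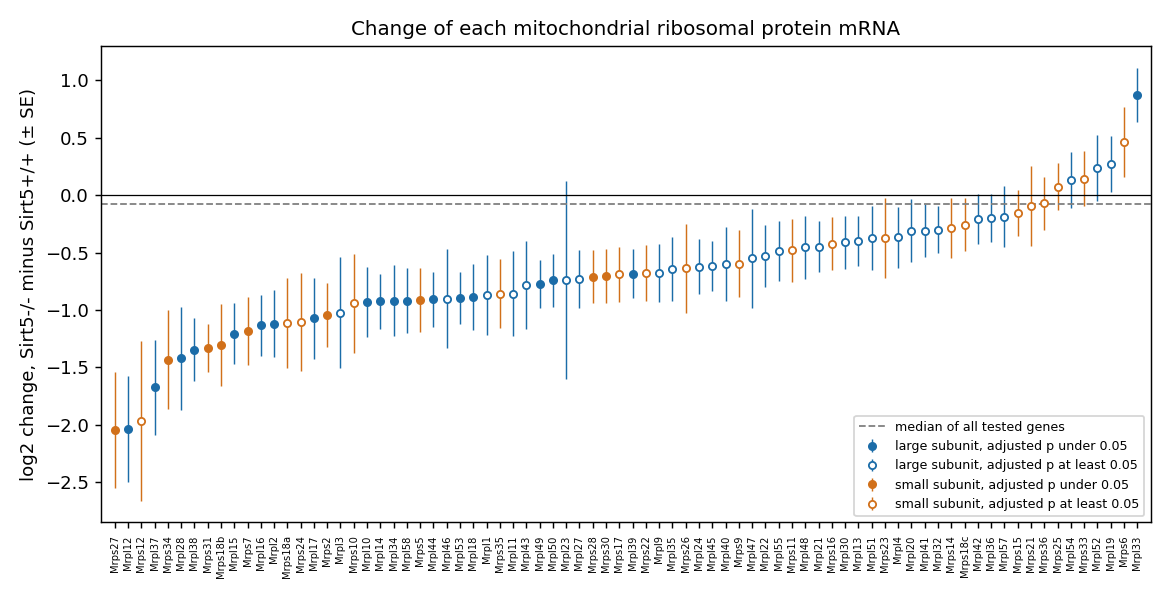
Log2 change (Sirt5-/- minus Sirt5+/+) with its SE for each of the 78 members in rank order, filled where the adjusted p was under 0.05, with a dashed line at the median of all tested genes (-0.08). Genes of both subunits run through the whole range, from Mrps27 at -2.05 to Mrpl33 at 0.87; with library totals none of the lower members was called.

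Among the large subunit proteins, the largest called change was that of Mrpl12, the stalk protein that helps recruit translation factors to the ribosome. Mrpl12 (chromosome 11, 120484613 to 120489065, GRCm38) had 16.8, 19.6 and 18.2 CPM in Sirt5-/- replicates 1 to 3, against 115, 80.2 and 28.0 CPM in Sirt5+/+ replicates 1 to 3. The groups did not overlap, but Sirt5+/+ replicate 3 lay much nearer to the Sirt5-/- livers than to the other Sirt5+/+ livers. Mrpl12 fell by 2.04 ± 0.46 in log2 units (SE), with an adjusted p of 0.0111 in edgeR. Mrpl38, a mitochondria-specific protein of the central protuberance, had the smallest p of the large subunit. Mrpl38 (chromosome 11, 116131817 to 116138868) had 35.3, 32.5 and 27.3 CPM in Sirt5-/- livers, against 106, 64.6 and 71.1 CPM in Sirt5+/+ livers. All Sirt5-/- values were under those of Sirt5+/+, and the gene fell by 1.34 ± 0.28 (SE; adjusted p = 0.00748, edgeR).

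Mrpl37, a mitochondria-specific protein, had 7.23, 9.62 and 8.86 CPM in Sirt5-/- livers, against 43.4, 25.8 and 12.6 CPM in Sirt5+/+ livers. Its Sirt5+/+ livers spanned a wide range, with replicate 3 the lowest, and it fell by 1.67 ± 0.41 in log2 units (SE), with an adjusted p of 0.0155 in edgeR. Further genes with bacterial homologues also fell. Mrpl15 averaged 15.2 ± 0.810 CPM in Sirt5-/- and 35.1 ± 10.2 CPM in Sirt5+/+ livers (SD, n = 3 each). Mrpl16, which lies near the peptidyl transferase centre, averaged 11.4 ± 1.67 CPM in Sirt5-/- and 24.9 ± 6.65 CPM in Sirt5+/+ livers. Mrpl2, also of the catalytic core, averaged 20.1 ± 0.312 CPM in Sirt5-/- and 43.5 ± 16.1 CPM in Sirt5+/+ livers. In all 3 the livers of the genotypes did not overlap, and the log2 falls were 1.21 ± 0.27, 1.13 ± 0.26 and 1.12 ± 0.29 (SE; adjusted p = 0.00966, 0.0119 and 0.0186, edgeR). Mrpl14, a protein of the interface between subunits, averaged 27.1 ± 2.39 CPM in Sirt5-/- and 51.4 ± 9.32 CPM in Sirt5+/+ livers and fell by 0.93 ± 0.24 (SE; adjusted p = 0.0178, edgeR). Mrpl53, from near the stalk base, averaged 12.03 ± 1.48 CPM in Sirt5-/- and 22.4 ± 3.88 CPM in Sirt5+/+ livers and fell by 0.90 ± 0.23 (SE; adjusted p = 0.0182, edgeR). Mrpl53 cannot be measured with certainty, as Gm42688 holds 84.4% of the 31-base words of its transcripts.

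These genes lost their calls without 1 or more of the Sirt5-/- libraries, although their log2 changes then stayed close to the values above (for Mrpl12 -1.99, -2.09 and -2.03 without Sirt5-/- replicate 1, 2 or 3). The falls of all 8 were smaller without Sirt5+/+ replicate 1, at -1.54 for Mrpl12, -1.14 for Mrpl37 and -0.75 for Mrpl2. Without Sirt5-/- replicate 3 the adjusted p was 0.0514 for Mrpl38, 0.0542 for Mrpl12, 0.0510 for Mrpl15, 0.0717 for Mrpl16, 0.0654 for Mrpl37, 0.101 for Mrpl14, 0.0891 for Mrpl53 and 0.0844 for Mrpl2. Without replicate 2 it was 0.0544 for Mrpl15, 0.0734 for Mrpl16, 0.0545 for Mrpl37, 0.0905 for Mrpl14, 0.0694 for Mrpl53 and 0.0852 for Mrpl2, and without replicate 1 it was 0.0639 for Mrpl37, 0.0531 for Mrpl14, 0.0728 for Mrpl53 and 0.0637 for Mrpl2. With library totals each of these 8 genes missed the threshold too, at log2 changes from -1.57 for Mrpl12 to -0.23 for Mrpl53.

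The other 10 large subunit genes that fell were Mrpl44, Mrpl49, Mrpl58, Mrpl39, Mrpl50, Mrpl28, Mrpl18, Mrpl10, Mrpl17 and Mrpl34, at log2 changes from -1.42 for Mrpl28 to -0.68 for Mrpl39. Each of them lost its call without at least 1 library or without the pair. Mrpl58 is a release-factor-like hydrolase built into the ribosome, Mrpl10 anchors the stalk, and Mrpl17, Mrpl39 and Mrpl44 lie around the exit of the nascent chain. Mrpl28 was the one called gene whose genotypes overlapped, with 12.3 CPM in the highest Sirt5-/- liver and 11.9 CPM in the lowest Sirt5+/+ liver, replicate 3. By region, 3 of 5 stalk genes, 2 of 5 central protuberance genes and 3 of 8 exit genes fell, with medians of -0.90, -0.89 and -0.65, and none of these rose. These shares are 60, 40 and 37.5%, each over few genes, against 17.1% of all genes tested.

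Mrpl33, a small protein with a bacterial homologue, was the only member that rose. Mrpl33 (chromosome 5, 31596935 to 31664384) had 32.1, 30.7 and 31.6 CPM in Sirt5-/- livers, against 14.9, 14.9 and 22.01 CPM in Sirt5+/+ livers. The Sirt5-/- livers were nearly equal and all above the Sirt5+/+ livers, of which replicate 3 was the highest. The gene rose by 0.87 ± 0.24 in log2 units (SE), with an adjusted p of 0.0224 in edgeR, and 4.38% of its 31-base words were shared with other genes. The call was lost without Sirt5-/- replicate 1, 2 or 3 (adjusted p = 0.0715, 0.0891 and 0.0852), without Sirt5+/+ replicate 2 (0.0857) and with library totals (log2 change 1.62, adjusted p = 0.0930).

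Other large subunit genes lay near 0. Mrpl54 had 33.6, 30.96 and 31.7 CPM in Sirt5-/- livers, against 36.9, 23.6 and 27.4 CPM in Sirt5+/+ livers. Mrpl57 had 26.9, 24.9 and 24.4 CPM in Sirt5-/- livers, against 32.5, 19.4 and 35.0 CPM in Sirt5+/+ livers. Mrpl36, one of the smallest conserved ribosomal proteins, had 20.3, 19.6 and 19.2 CPM in Sirt5-/- livers, against 25.01, 19.7 and 23.2 CPM in Sirt5+/+ livers. In all 3 the Sirt5-/- values lay within or at the edge of the Sirt5+/+ range, and the log2 changes were 0.13 ± 0.24, -0.19 ± 0.27 and -0.20 ± 0.21 (SE; adjusted p = 0.707, 0.625 and 0.490, edgeR).

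**Figure D3:**
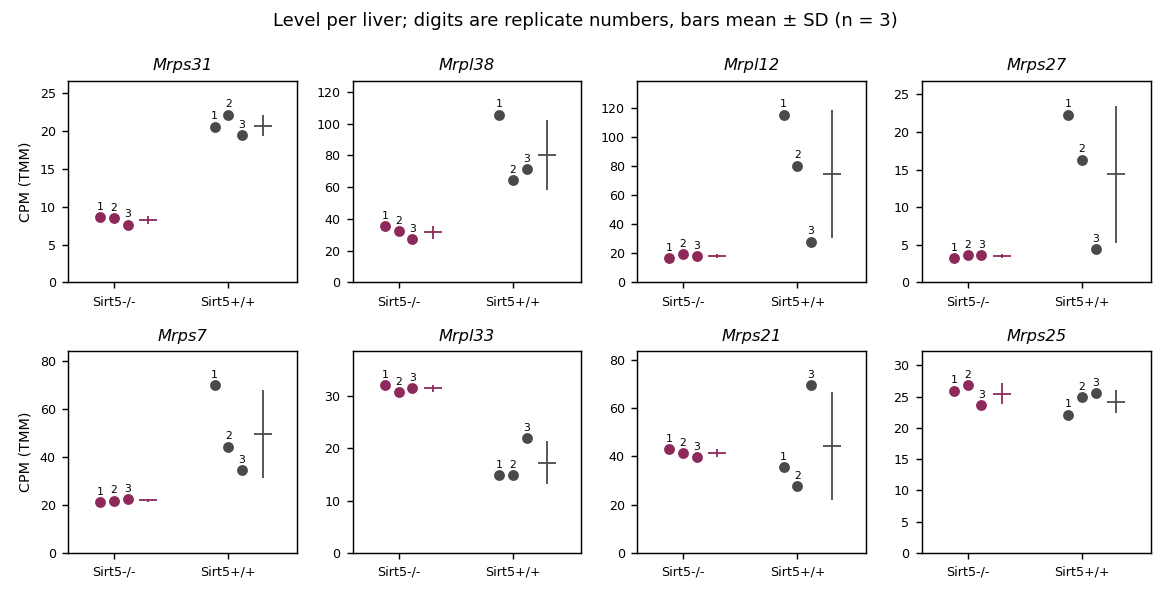
CPM of 8 members in each liver, Sirt5-/- left and Sirt5+/+ right, with replicate numbers beside the points and the mean ± SD (n = 3) to the right of each group. Mrps31 separates the genotypes with little spread, Mrpl12 and Mrps27 have a low Sirt5+/+ replicate 3 (28.0 and 4.45 CPM), Mrpl33 is higher in Sirt5-/-, and Mrps21 and Mrps25 overlap.

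In the small subunit, Mrps31, a mitochondria-specific protein of the head, had the smallest p of all members. Mrps31 (chromosome 8, 22411361 to 22429665) had 8.57, 8.52 and 7.62 CPM in Sirt5-/- livers, against 20.5, 22.1 and 19.4 CPM in Sirt5+/+ livers. The replicates were tight in both genotypes, Sirt5+/+ replicate 3 included, and the gene fell by 1.33 ± 0.21 in log2 units (SE), with an adjusted p of 0.00302 in edgeR. It was the only lower member that kept its call without each single library and without the pair of libraries richest in mt- reads, although it missed the threshold with library totals (log2 change -0.73, adjusted p = 0.525).

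Mrps27, a mitochondria-specific protein with pentatricopeptide repeats, had the largest fall of all members. Mrps27 (chromosome 13, 99344786 to 99415562) had 3.27, 3.67 and 3.59 CPM in Sirt5-/- livers, against 22.3, 16.3 and 4.45 CPM in Sirt5+/+ livers. Sirt5+/+ replicate 3 lay just above the Sirt5-/- livers, and the gene fell by 2.05 ± 0.50 (SE; adjusted p = 0.0154, edgeR). The gene 6430562O15Rik holds 18.9% of the 31-base words of Mrps27. Mrps34, which in mice is needed for a stable small subunit rRNA, had 14.7, 18.4 and 18.1 CPM in Sirt5-/- livers, against 74.2, 43.2 and 20.2 CPM in Sirt5+/+ livers. It had the same low replicate 3 and fell by 1.43 ± 0.43 (SE; adjusted p = 0.0321, edgeR), and its value is uncertain because other genes, mostly Mapk8ip3, hold 73.8% of its 31-base words.

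Mrps7, a conserved protein of the head, had 21.3, 21.8 and 22.6 CPM in Sirt5-/- livers, against 70.1, 44.4 and 34.6 CPM in Sirt5+/+ livers, and fell by 1.18 ± 0.29 (SE; adjusted p = 0.0160, edgeR). Mrps2 averaged 11.01 ± 1.32 CPM in Sirt5-/- and 22.7 ± 6.92 CPM in Sirt5+/+ livers (SD, n = 3 each) and fell by 1.05 ± 0.28 (SE; adjusted p = 0.0201, edgeR). Mrps5, a conserved protein near the path of the mRNA, averaged 24.7 ± 7.24 CPM in Sirt5-/- and 46.6 ± 6.70 CPM in Sirt5+/+ livers. Mrps28 averaged 15.6 ± 0.621 CPM in Sirt5-/- and 25.6 ± 5.20 CPM in Sirt5+/+ livers. The last 2 genes fell by 0.92 ± 0.28 and 0.71 ± 0.23 (SE; adjusted p = 0.0344 and 0.0418, edgeR), and Sirt5+/+ replicate 3 was their highest library, unlike in Mrps27, Mrps34 and Mrps7.

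The small subunit genes besides Mrps31 also lost their calls with fewer Sirt5-/- libraries, while the size of most falls held without those libraries. Without Sirt5-/- replicate 1, 2 or 3 the log2 change was -2.01, -2.07 and -2.05 for Mrps27 and -1.18, -1.17 and -1.20 for Mrps7. Without Sirt5-/- replicate 1, 2 or 3 the adjusted p was 0.0586, 0.0582 and 0.0649 for Mrps27, 0.110, 0.0954 and 0.101 for Mrps34, 0.0611, 0.0777 and 0.0707 for Mrps7, 0.0783, 0.0767 and 0.0795 for Mrps2, and 0.123, 0.161 and 0.143 for Mrps28. For Mrps5 it was 0.148 and 0.158 without Sirt5-/- replicate 2 or 3. Without Sirt5+/+ replicate 1 it was 0.0564 for Mrps27, 0.0871 for Mrps34, 0.0775 for Mrps5 and 0.0604 for Mrps28, and without replicate 2 it was 0.0553 for Mrps27, 0.0740 for Mrps34, 0.0572 for Mrps2 and 0.0512 for Mrps5. Without Sirt5+/+ replicate 1 the changes of Mrps27, Mrps34, Mrps7 and Mrps2 were smaller, at -1.56, -0.87, -0.83 and -0.78. Those of Mrps5 and Mrps28 moved less, to -0.86 and -0.72. Without Sirt5+/+ replicate 3 Mrps28 had an adjusted p of 0.0651 and a log2 change of -0.49.

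Some small subunit names do not match the place of the protein. Mrps18a and Mrps30 are built into the large subunit, Mrps36 is a subunit of the 2-oxoglutarate dehydrogenase complex rather than of the ribosome, and Mrps18a, Mrps18b and Mrps18c are 3 relatives of the same bacterial protein. With Mrps18a and Mrps30 counted as large and Mrps36 left out, the medians were -0.70 for 51 large and -0.69 for 26 small subunit genes. Mrps30 averaged 13.2 ± 1.13 CPM in Sirt5-/- and 21.5 ± 4.64 CPM in Sirt5+/+ livers (SD, n = 3 each) and fell by 0.70 ± 0.24 (SE; adjusted p = 0.0483, edgeR), a call lost without any single library but Sirt5+/+ replicate 3 (adjusted p = 0.0554 to 0.182), and without the pair richest in mt- reads (0.0702). Mrps36 had 17.1, 17.0 and 17.5 CPM in Sirt5-/- livers, against 21.2, 14.0 and 19.1 CPM in Sirt5+/+ livers, with overlap and a log2 change of -0.07 ± 0.23 (SE; adjusted p = 0.835, edgeR).

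Mrps18b, a small subunit protein, had 10.8, 13.5 and 14.4 CPM in Sirt5-/- livers, against 49.3, 27.5 and 18.5 CPM in Sirt5+/+ livers. It fell by 1.31 ± 0.36 (SE; adjusted p = 0.0236, edgeR), without overlap. This call was lost without Sirt5-/- replicate 1, 2 or 3 (adjusted p = 0.0897, 0.0842 and 0.0749) or Sirt5+/+ replicate 2 (0.0513), and the change was -0.81 without Sirt5+/+ replicate 1. Mrps18a had 7.99, 8.71 and 10.3 CPM in Sirt5-/- livers, against 30.2, 18.5 and 9.43 CPM in Sirt5+/+ livers, and here replicate 3 lay inside the Sirt5-/- range. Its log2 change of -1.11 ± 0.39 did not pass (SE; adjusted p = 0.0569, edgeR), but it did without Sirt5+/+ replicate 3 (-1.38, adjusted p = 0.00213). Mrps18c had 10.5, 10.3 and 13.0 CPM in Sirt5-/- livers, against 11.6, 14.1 and 14.8 CPM in Sirt5+/+ livers, with a log2 change of -0.26 ± 0.23 (SE; adjusted p = 0.418, edgeR). Other genes hold 31.6% of the words of Mrps18b and 34.5% of those of Mrps18c, whose values are uncertain to that extent. Whether the changes of these 3 genes differ from each other was not tested.

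Levels between genes were compared as TPM, which are per transcript length. Mrpl52, a mitochondria-specific large subunit protein, averaged 278 ± 72.1 TPM in Sirt5-/- and 178 ± 87.3 TPM in Sirt5+/+ livers (SD, n = 3 each) and was the most abundant member in 5 of 6 libraries. Mrps21, a small conserved protein, averaged 200 ± 57.2 TPM in Sirt5-/- and 135 ± 45.6 TPM in Sirt5+/+ livers, and ranked second in those 5 libraries and first in Sirt5+/+ replicate 3. Neither gene passed the test between genotypes: the log2 change was 0.24 ± 0.29 for Mrpl52 and -0.09 ± 0.35 for Mrps21 (SE; adjusted p = 0.562 and 0.863, edgeR). Sirt5+/+ replicate 3 was the highest library for both in CPM, with 65.0 CPM against 34.5 to 61.9 CPM for Mrpl52 and 69.6 CPM against 27.7 to 43.2 CPM for Mrps21. In TPM the same library was the lowest for both, at 77.73 TPM for Mrpl52 and 82.65 TPM for Mrps21, so the units disagree there. Without that library Mrpl52 was higher in Sirt5-/- by 0.59 on the log2 scale (adjusted p = 0.0488, edgeR).

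Some of the next members changed rank between genotypes, and others moved little. Mrpl33 ranked 3 of 78 by TPM in each Sirt5-/- library, and 24, 13 and 11 in Sirt5+/+ replicates 1 to 3. Mrpl14 ranked 6, 7 and 8 in the Sirt5-/- libraries, and 3, 3 and 4 in Sirt5+/+. Mrpl30 ranked 5 in each Sirt5-/- library, and 7, 4 and 7 in Sirt5+/+. Ranks also moved within a genotype, as for Mrpl17 at 4, 7 and 38 in Sirt5+/+ replicates 1 to 3. Mrps24, which lies near the mRNA entry, had 14.6, 15.9 and 18.3 CPM in Sirt5-/- livers, against 55.8, 33.9 and 14.8 CPM in Sirt5+/+ livers. Its groups overlapped through replicate 3, and its log2 change of -1.10 ± 0.42 did not pass (SE; adjusted p = 0.0774, edgeR), but it did without that library (-1.41, adjusted p = 0.00175). The median TPM was 11.5, 21.5 and 25.9 for the large subunit in Sirt5-/- livers, against 33.8, 31.8 and 6.38 in Sirt5+/+ livers. For the small subunit it was 10.9, 21.3 and 25.2 in Sirt5-/- livers, against 33.5, 34.3 and 5.60 in Sirt5+/+ livers, so that the subunits stayed close to each other in every library. TPM are shares of the whole library, and the lowest medians of each genotype stand in the libraries with the most mt- reads.

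Members with and without a listed bacterial homologue also had similar values, with no test of the difference. Of 46 members with a listed homologue 14 (30.4%) fell and 1 rose, with a median log2 change of -0.68. Of the other 32 members 13 (40.6%) fell and none rose, with a median of -0.69. Of all genes tested 17.1% fell. These 32 are all members outside the list of homologues, so not each of them need be mitochondria-specific. The remaining genes near 0 in the small subunit were Mrps25, with 26.0, 26.8 and 23.6 CPM in Sirt5-/- livers, against 22.1, 24.96 and 25.5 CPM in Sirt5+/+ livers. Its groups overlapped, with a log2 change of 0.07 ± 0.20 (SE; adjusted p = 0.806, edgeR), and 68.9% of its words occur in the neighbouring gene Nr2c2. Among the 65 members with at most 20% shared words 24 fell and 1 rose, with a median of -0.70, and among the 13 others 3 fell.

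Of the 78 members, 69 had a RefSeq promoter window. The NRF1-type motif (GCGCA and GCGC with 1 base of any kind between them), on either strand, was present in 13 of 69 members (18.8%), against 10.6% of 10957 tested genes with a window and 5.19% of all genes with one. The ETS-type motif CCGGAAGT was in 12 members (17.4%), against 8.52% of tested genes and 4.31% of all genes. The YY1-type motif AAGATGGCG was in 8 members (11.6%), against 3.32% of tested genes and 1.64% of all genes. At least 1 of these 3 was found in 31 members (44.9%), against 20.7% of tested genes. Of the members with a window, 5 of the 13 with the NRF1-type motif fell, with a median log2 change of -0.64, against 18 of 56 without it, with a median of -0.72. Of those with the ETS-type motif 2 of 12 fell, with a median of -0.66, against 21 of 57 and -0.69. Of those with the YY1-type motif 2 of 8 fell, with a median of -0.88, against 21 of 61 and -0.68, so the medians with a motif lay on either side of those without. The cAMP-response motif TGACGTCA was in 2 members (2.90%, against 3.31% of tested genes), and the E-box CACGTG was in 5 (7.25%, against 11.4%). The medians were -0.95 with TGACGTCA and -0.31 with the E-box, each over few genes. Overlaps between motifs were not removed, and a match is a run of letters, not a measured binding site.

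Of the 5 ribosomal proteins that do not carry an Mrp name, Ptcd3 and Dap3, both of the small subunit, fell by 0.99 ± 0.33 and 0.69 ± 0.23 (SE; adjusted p = 0.0467 and 0.0477, edgeR), and none rose. The lower share was 40% of these 5, against 17.1% of all genes tested. Gadd45gip1, of the large subunit, had 46.8, 42.6 and 40.6 CPM in Sirt5-/- livers, against 57.4, 37.2 and 141 CPM in Sirt5+/+ livers, and did not pass (log2 change -0.85 ± 0.46, adjusted p = 0.182, edgeR). The last of these libraries set its value: without Sirt5+/+ replicate 3 the change was -0.0697 (adjusted p = 0.826, edgeR). The calls of Ptcd3 and Dap3 were lost without any single library but Sirt5+/+ replicate 3 (adjusted p up to 0.174 for Ptcd3 and 0.159 for Dap3), and that of Dap3 also without the pair richest in mt- reads (0.0713).

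Of 25 measured assembly and rRNA-modifying factors 8 (32%) fell and none rose, with a median log2 change of -0.74. Of all genes tested 17.1% fell. Tfb1m, which methylates the small subunit rRNA, had 2.27, 1.96 and 2.51 CPM in Sirt5-/- livers, against 5.98, 5.32 and 5.37 CPM in Sirt5+/+ livers, and fell by 1.31 ± 0.30 (SE; adjusted p = 0.0108, edgeR). Nsun4, another methyltransferase of that rRNA, fell by 0.95 ± 0.23 (SE; adjusted p = 0.0150, edgeR). Rpusd3, a pseudouridine synthase family member, had 1.92, 1.87 and 1.35 CPM in Sirt5-/- livers, against 19.7, 10.4 and 2.49 CPM in Sirt5+/+ livers, and fell by 2.69 ± 0.64 (SE; adjusted p = 0.0131, edgeR). Tfb1m lost its call without Sirt5-/- replicate 2 (0.0758), Rpusd3 without Sirt5-/- replicate 3 (0.0642), and Nsun4 without Sirt5-/- replicate 1, 2 or 3 (0.0584, 0.0918 and 0.0505), and the change of Rpusd3 was -1.92 without Sirt5+/+ replicate 1. With library totals Tfb1m and Nsun4 missed the threshold, at -0.66 and -0.32 (adjusted p = 0.600 and 0.808), and Rpusd3 passed, at -2.29 (0.0179). Ptcd3 and Dap3 missed it too, at -0.48 and -0.02 (0.698 and 0.984), and Dap3 was at 0.13 with library totals over the genes other than mt-.

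Of 17 translation factors 9 (52.9%) fell and none rose, with a median of -1.13, while 17.1% of all genes tested fell. Lrpprc, which stabilises mitochondrial mRNAs, had 29.3, 23.2 and 16.2 CPM in Sirt5-/- livers, against 56.6, 65.7 and 91.1 CPM in Sirt5+/+ livers, and fell by 1.63 ± 0.31 (SE; adjusted p = 0.00562, edgeR). The initiation factor gene Mtif3 fell by 1.35 ± 0.27 and the recycling factor gene Gfm2 fell by 1.28 ± 0.26 (SE; adjusted p = 0.00696 and 0.00701, edgeR). Of 20 genes that charge mitochondrial tRNAs 9 (45%) fell and none rose, with a median of -0.88. Among those that fell were Aars2, Fars2 and Gatb, at -1.48 ± 0.28, -1.51 ± 0.32 and -1.65 ± 0.35 (SE; adjusted p = 0.00518, 0.00806 and 0.00821, edgeR). Without Sirt5-/- replicate 3 Gatb was just over the threshold. With library totals these 6 genes missed the threshold (log2 changes from -1.17 for Gatb to -0.74 for Gfm2).

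**Figure D4:**
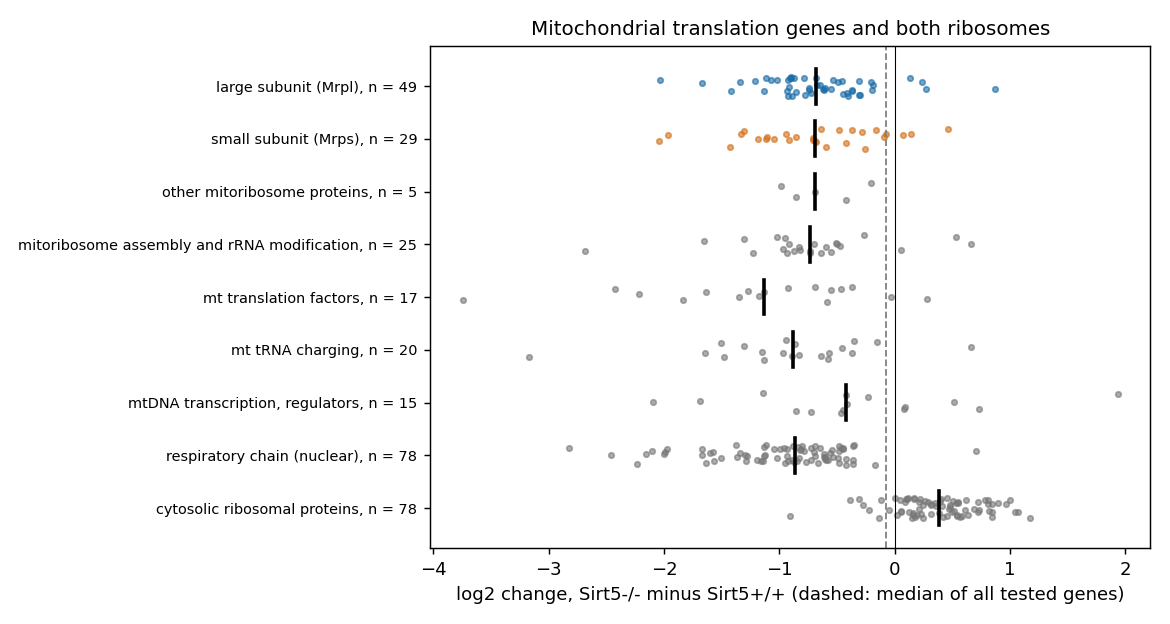
Log2 change (Sirt5-/- minus Sirt5+/+) of each gene in both subunits and in 7 related lists, with black lines at the list medians and a dashed line at the median of all tested genes. The mitochondrial translation lists and the respiratory chain lie to the left, with medians from -1.13 to -0.68 apart from the transcription list at -0.42, and the cytosolic ribosome lies to the right at 0.39; the subunit medians turn to 0.09 and 0.11 when mt- genes are removed and library totals are used.

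Among 15 genes for mitochondrial transcription and its nuclear regulators 3 (20%) fell and 1 (6.67%) rose, with a median of -0.42. Of all genes tested 17.1% fell and 17.4% rose, so the lower share was near that of all genes. Tfam, which packages mitochondrial DNA and starts its transcription, had 8.05, 11.5 and 11.5 CPM in Sirt5-/- livers, against 20.9, 24.9 and 22.7 CPM in Sirt5+/+ livers, and fell by 1.14 ± 0.23 (SE; adjusted p = 0.00752, edgeR). The co-activator gene Ppargc1b fell by 1.69 ± 0.37 (SE; adjusted p = 0.00960, edgeR), a call lost without Sirt5-/- replicate 3 (0.0559). Myc, a growth regulator that also drives mitochondrial biogenesis genes, had 32.5, 32.9 and 38.2 CPM in Sirt5-/- livers, against 9.92, 6.89 and 10.5 CPM in Sirt5+/+ livers, and rose by 1.93 ± 0.25 (SE; adjusted p = 0.00188, edgeR). With library totals Tfam and Ppargc1b missed the threshold, at -0.45 and -0.91 (adjusted p = 0.714 and 0.461), as they did when mt- genes were also left out, at -0.32 and -0.82 (0.577 and 0.199), whereas Myc passed both, at 2.67 and 2.79. Nrf1, whose product binds the first motif above, was at 0.09 ± 0.28 (SE; adjusted p = 0.830, edgeR).

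The rRNAs of the mitochondrial ribosome varied far more between livers than the mRNAs of its proteins did. The small subunit rRNA mt-Rnr1 had 3007, 951 and 717 CPM in Sirt5-/- livers, against 714, 374 and 9617 CPM in Sirt5+/+ livers. The large subunit rRNA mt-Rnr2 had 3762, 1215 and 832 CPM in Sirt5-/- livers, against 497, 435 and 12791 CPM in Sirt5+/+ livers. Sirt5+/+ replicate 3 was the highest and Sirt5-/- replicate 1 the next, in the order of the share of mt- reads, and neither rRNA passed the test (log2 changes -1.19 ± 1.16 and -1.24 ± 1.27, SE; adjusted p = 0.461 and 0.485, edgeR). Without Sirt5+/+ replicate 3 the direction turned, to 1.58 for mt-Rnr1 and 2.12 for mt-Rnr2 (adjusted p = 0.0730 and 0.0249, edgeR). Of the 12 mitochondrially encoded protein genes that could be tested none was called (0 at an unadjusted p under 0.05 with edgeR, DESeq2 or limma-voom, of which DESeq2 gave a p for 3), and mt-Nd4l, mt-Nd2 and mt-Co3 had the smallest p, at -2.37 ± 1.40, -1.14 ± 1.28 and -1.11 ± 1.295 (SE). They turned to 1.76, 1.68 and 2.12 without that library (adjusted p = 0.0207, 0.101 and 0.0496).

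Of 78 cytosolic ribosomal protein genes 6 rose and none fell, with a median log2 change of 0.39. These 6 are 7.69% of the list, below the 17.4% of all genes tested that rose. In the mitochondrial ribosome 27 members were lower, with a median of -0.69. Rpl35 and Rps20 rose by 1.17 ± 0.31 and 1.00 ± 0.26 (SE; adjusted p = 0.0191 and 0.0203, edgeR). The nuclear-encoded subunits of the respiratory chain, whose partner subunits the mitochondrial ribosome makes, had 39 of 78 tested genes (50%) lower and none higher. Their median was -0.86, and 17.1% of all genes tested were lower. Hepatocyte markers, with a median of -1.95, were shifted further than the members, and 3 of 6 endothelial markers fell and none rose, with a median of -1.37. All 7 cell cycle markers and 5 of 6 T or NK cell markers rose and none fell. Of 7 fibroblast or stellate markers 3 rose and 1 fell, with a median of 0.68, and of 7 cholangiocyte markers 2 rose and none fell. The summed level of macrophage markers was 297 to 536 CPM in Sirt5-/- and 102 to 180 CPM in Sirt5+/+ livers, and that of cholangiocyte markers was 751 to 830 CPM in Sirt5-/- and 90.4 to 402 CPM in Sirt5+/+ livers. Of the macrophage markers 2 fell and 3 rose, with a median log2 change of -0.98, opposite in sign to the change of their sum. None of these markers was at 0 in every library. The counts of the related lists and of the markers, and the values of Rpl35 and Rps20, were not repeated without a library or with another scaling. The part of the cell mixture in the members' levels was not tested.

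**Figure D5:**
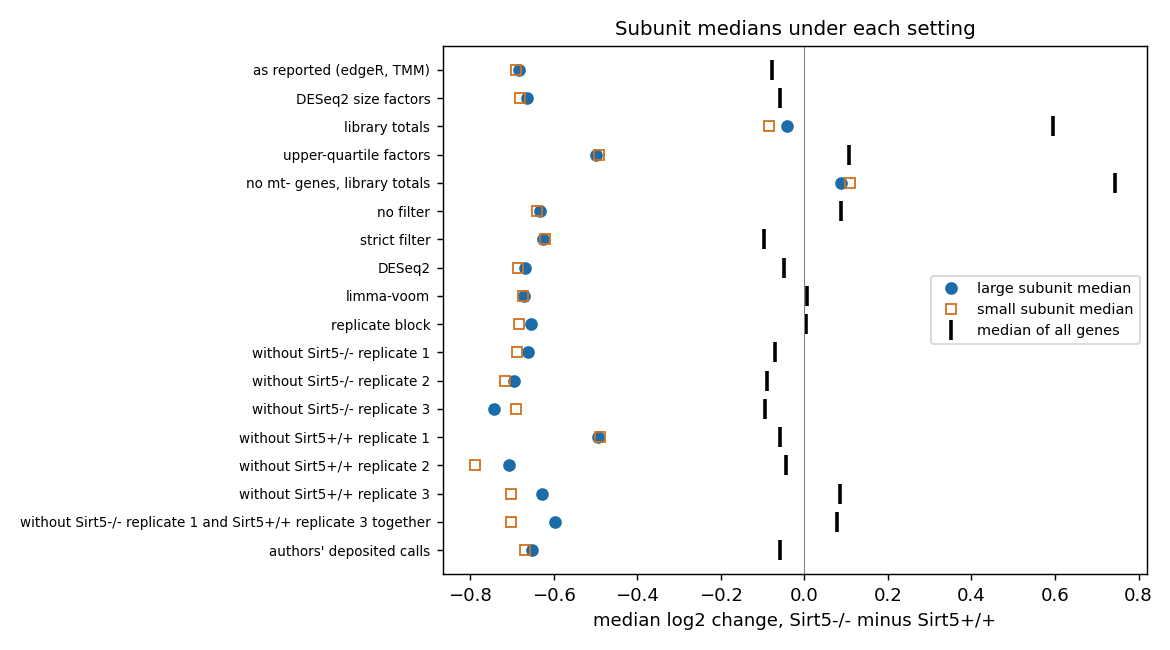
Median log2 change of large and small subunit members and of all genes (Sirt5-/- minus Sirt5+/+) under each setting. The subunit medians stay close together throughout and lie left of the median of all genes in every row, while their sign turns without mt- genes with library totals (0.09 and 0.11). A change of scaling moves all of these medians by nearly the same amount.

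In the authors' deposited table, 29 members were lower and 1 was higher at an adjusted p under 0.05, and 26 of the 27 genes called lower here were among them. Among the genes tested here, 19.4% were lower by the authors' deposited table.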

How the data were processed

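One deposited table held values of 3 Sirt5-/- and 3 Sirt5+/+ livers. The submitters' processing notes name HISAT2 (version 2.1.0), RSEM (version 1.3.1) and DESeq2 (version 1.24.0); their roles, options and genome build are not given in the sources used here. The expected counts (estimated reads per gene, in part not whole numbers) and the TPM were made by the authors and used as deposited, TPM for comparing levels between genes. The authors' deposited log2 fold changes and adjusted p-values served as an alternative. All 55536 IDs and names are those of GENCODE M21, so gene coordinates are on GRCm38.

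Counts were rounded, filtered with filterByExpr (minimum count 10, minimum total 15), scaled by TMM and put through the quasi-likelihood test of edgeR (version 4.0.16, two-sided), genotype as the only term, with Benjamini-Hochberg adjustment over 14799 genes (threshold 0.05). Each SE was derived from the log2 change and its F statistic, and edgeR's common dispersion gave a biological coefficient of variation of 0.373. A floor of 3 counts equals 0.0827 to 0.393 CPM. Only the edgeR fit was tested on simulated counts. These were drawn with the common dispersion and held no library of unlike make-up, so they do not cover a case such as Sirt5+/+ replicate 3. Alternatives used limma 3.58.1 (voom), DESeq2 1.42.0, other scalings, filters and thresholds, and left-out libraries.

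The members, lists, naming rule and tests were chosen with earlier results of these data known. The rule named, in each subunit, the 8 lowest p among lower genes, all higher genes, the 3 nearest 0 and the 3 most abundant, besides 5 genes of special placement and the 3 lowest p of each related list. Nrf1, Mrpl51, Rpl35, Rps20 and the other genes listed were named after their values were seen. Shared sequence is the percent of 31-base words of a gene's GENCODE M21 transcripts that occur, on either strand, in other genes. The strand setting of the counting is not given in the sources used here. Promoter sequences are those of RefSeq (GRCm38.p6).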

Additional observations from a re-analysis of the deposited data

How the results depend on the processing

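The members lay below the median of all genes under every setting, by 0.435 (without Sirt5+/+ replicate 1) to 0.776 (without Sirt5-/- replicate 1 and Sirt5+/+ replicate 3). A change of scaling moves all genes by nearly the same amount, so it could hardly alter this difference. The calls of single members depended on the scaling and on each library. Lower members numbered 0 with library totals, 0 without mt- genes and with library totals, 15 with upper-quartile factors, 9 with the replicate block and 3 at a threshold of 0.01, against 27 as reported, and higher members 0, 3, 1, 0 and 0. These lower shares were 0, 0, 19.2, 11.5 and 3.85% of the members, against 2.2, 4.0, 13.2, 11.3 and 7.98% of all genes, so the members' share was above that of all genes with upper-quartile factors, near it with the block and below it in the other cases. Leaving out 1 library gave 1 to 42 lower and 0 to 2 higher members, or 1.28 to 53.8% of the members lower, against 7.21 to 23.4% of all genes. The subunit medians were -0.0411 (large) and -0.0842 (small) with library totals and 0.0865 and 0.11 without mt- genes, and -0.74 to -0.49 and -0.79 to -0.49 with 1 library left out. All genes called numbered 5100 as reported, 2763 with library totals, 2596 at 0.01 and 2531 to 7647 with 1 library left out. The cause of these changes was not tested.

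Same-numbered livers did not vary together (correlations of -0.19, 0.11 and -0.20 for replicates 1 to 3). No pairing by number was seen, although a shared effect smaller than the spread between livers could be missed. The replicate block left 3643 called genes. Of 922 values of named genes under other settings, 679 kept direction and side of the threshold, 182 lost a call, 13 gained one and 48 changed sign. With library totals the sign changed for Mrpl57 (0.549), Mrpl36 (0.458), Mrps28 (0.0396), Mrps36 (0.618), Mrps21 (0.789), Mrps18c (0.435), Gadd45gip1 (0.132), mt-Rnr1 (0.0699), mt-Rnr2 (0.0841), mt-Nd2 (0.106) and mt-Co3 (0.203). Without mt- genes it changed for Mrpl57 (0.673), Mrpl36 (0.616), Mrps28 (0.151), Mrps36 (0.764), Mrps21 (0.834), Mrps18c (0.567), Mrps30 (0.110), Dap3 (0.132) and Gadd45gip1 (0.124). With upper-quartile factors it changed for Mrpl57 (1.46e-05), Mrps36 (0.119) and Mrps21 (0.081). With limma-voom it changed for Mrps21 (0.0200) and mt-Co3 (0.113). With the replicate block it changed for Mrps21 (0.0217), mt-Rnr1 (0.315), mt-Rnr2 (0.679), mt-Nd4l (0.528), mt-Nd2 (0.297) and mt-Co3 (1.003). Without Sirt5-/- replicate 1 and Sirt5+/+ replicate 3 together it changed for Mrps36 (0.0257), Mrps21 (0.411), mt-Rnr1 (0.669), mt-Rnr2 (1.188), mt-Nd4l (1.722), mt-Nd2 (0.703) and mt-Co3 (1.152). With 1 library left out the log2 change ran from -0.0245 to 0.358 for Mrpl54, from -0.429 to 0.0239 for Mrpl57, from -0.357 to 0.444 for Mrps21, from -0.249 to 0.0842 for Mrps36, from -2.073 to 2.122 for mt-Co3, from -2.119 to 1.682 for mt-Nd2, from -2.952 to 1.760 for mt-Nd4l, from -2.102 to 1.579 for mt-Rnr1 and from -2.166 to 2.117 for mt-Rnr2.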
